A study of Mus musculus with 8 samples.

Results

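The 10 genes described here act at microtubule organizing centers. They are the gamma-tubulins Tubg1 and Tubg2, the ring complex genes Tubgcp2, Tubgcp3, Tubgcp4, Tubgcp5 and Mzt1, the targeting factor Nedd1, and the pericentriolar scaffolds Pcnt and Cdk5rap2. They were taken by name, and all 10 were found among the 24860 Ensembl genes listed in each file. The study asked what loss of ESRP1, an epithelial splicing regulator, does to mouse eggs. RNA was taken from C57BL/6 females at postnatal day 42, from oocytes arrested in metaphase II (MII). The WT group (wild-type genotype) and the Esrp1_KO group (genotype Esrp1-/-) had 4 libraries each, of 15 oocytes apiece, made with Smart-seq2. How the Esrp1 allele was made, and in which cells it was lost, is not given in the sources used here. No agent is named for either group. The libraries are described as biological replicates, but the labels do not tie a tube to an animal. The p-values below therefore reflect differences among tubes, part of which may be technical.

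Gamma-tubulin seeds new microtubules from a ring of gamma-tubulin complex proteins (GCPs), which the small protein MZT1 binds and which NEDD1 brings to the spindle. Pericentrin, made from Pcnt, and CDK5RAP2 hold these rings in the pericentriolar material. Mouse oocytes have no centrioles, and their meiotic spindle forms from many acentriolar organizing centers that carry gamma-tubulin and pericentrin.

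Levels are FPKM, fragments scaled to gene length and to library size. For all of the 10 genes but Mzt1 that length was all annotated exons merged, such as 8568 bases for Tubgcp3 and 1754 for Tubg2. A transcript shorter than this length reads too low, so levels set side by side between genes are approximate. The library totals implied by the steps between low values were 24910433 to 32337965 reads. These reads are not independent molecules. Esrp1, the targeted gene, was at 16.2 to 19.5 FPKM in WT and at 2.31 to 3.83 in Esrp1_KO, and fell by 2.12 ± 0.15 (SE) in mean log2(FPKM + 1) (adjusted p = 1.32e-05, limma). A gene entered the limma test on that scale if its 8 libraries averaged 1 FPKM or more, and it was called at an adjusted p under 0.05. Of 8021 genes tested 36.9% were called, 13.9% higher and 23.1% lower in Esrp1_KO. Lower genes were 62.5% of all calls with FPKM as deposited and 47.3% with TMM scaling, which moved the median difference of all genes by 0.122. Median-ratio scaling moved it by 0.112. The 10 oocyte markers examined, such as Gdf9 and Zp3, summed to 7895 to 8820 FPKM in WT and 9465 to 10791 in Esrp1_KO, where 4 rose and 1 fell. Of 12 cumulus and granulosa markers, 10 were examined, and they summed to 5.71 to 7.35 FPKM in WT and 1.85 to 3.11 in Esrp1_KO. Most of this was Cyp19a1, at 6.10 ± 0.71 and 1.87 ± 0.39 FPKM (SD, n = 4; adjusted p = 0.00012, limma). Ptgs2 went the other way, from 0.075 ± 0.068 to 0.316 ± 0.13 FPKM, and its groups did not overlap. Has2 was at 0.118 ± 0.098 and 0.129 ± 0.067 FPKM. Both were under the filter and were not tested. Fshr and Ptx3 were at 0 in 7 of the 8 libraries each. The 8 immune markers summed to 1.20 to 2.19 FPKM in WT and 1.94 to 11.2 in Esrp1_KO, the highest in replicate 3, where Lyz2 reached 5.44 FPKM. H2-Aa, 1 of the 2 tested, was at 0.811 ± 0.12 and 1.62 ± 0.34 FPKM (SD, n = 4) and passed the filter through its Esrp1_KO level alone. Their part in the results below was not tested.

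Of the 10 genes 9 averaged 1 FPKM or more and were tested, and 6 of these were called against 36.9% of all genes tested. The count fell to 3 without WT replicate 3 and to 3 with no filter. Tubgcp3 passed the filter through Esrp1_KO alone (0.689 FPKM in WT) and Tubgcp2 through WT alone (0.871 FPKM in Esrp1_KO). Tubg1, Tubg2 and Tubgcp3 rose in Esrp1_KO. Mzt1, Pcnt and Cdk5rap2 fell, and Tubgcp2, Tubgcp5 and Nedd1 did not pass. The median difference of the 9 was −0.26 in mean log2(FPKM + 1), against −0.06 over all genes tested. The groups did not overlap in 6 of the 9, namely Tubg1, Tubgcp3, Mzt1, Nedd1, Pcnt and Cdk5rap2, as in 36.8% of all genes tested. Each library pools the RNA of its eggs, so fewer eggs that carry a transcript and less of it per egg cannot be told apart.

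**Figure D1:**
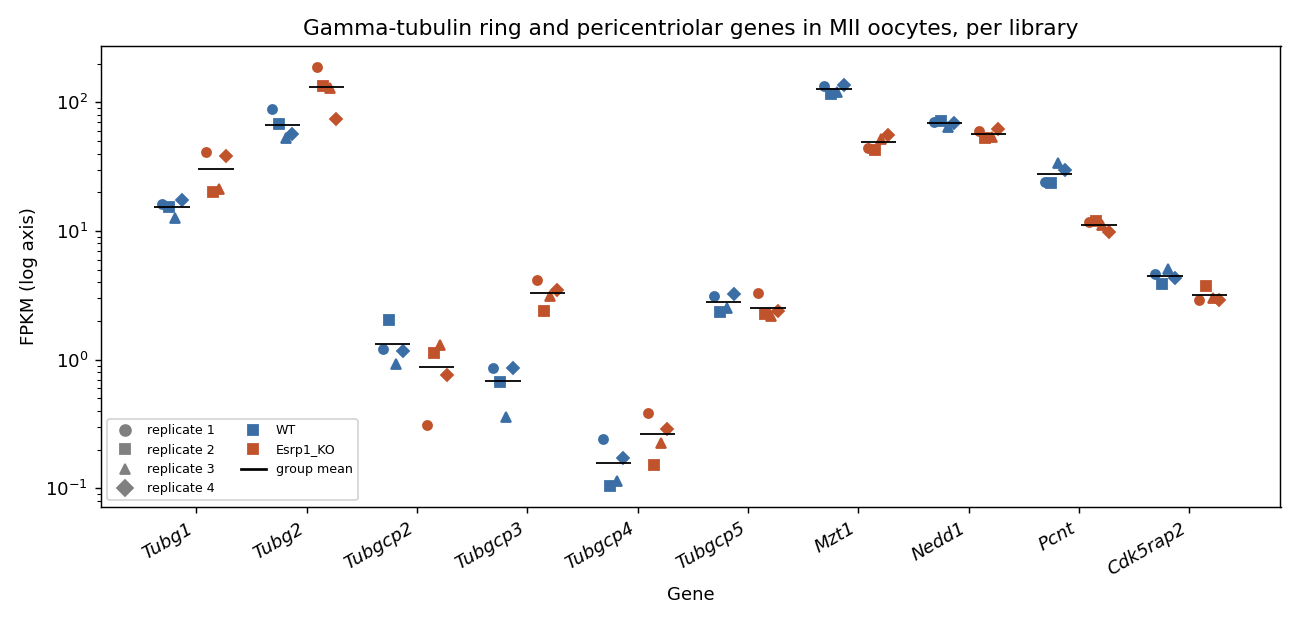
FPKM of the 10 genes (x axis) on a log axis, with 1 point per library, a marker shape per replicate number and a bar at each group mean. Mzt1, Pcnt and Cdk5rap2 lie lower and Tubg1 and Tubgcp3 higher in every Esrp1_KO library than in any WT library, while Tubg2 overlaps through Esrp1_KO replicate 4 (73.6 FPKM).

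**Figure D2:**
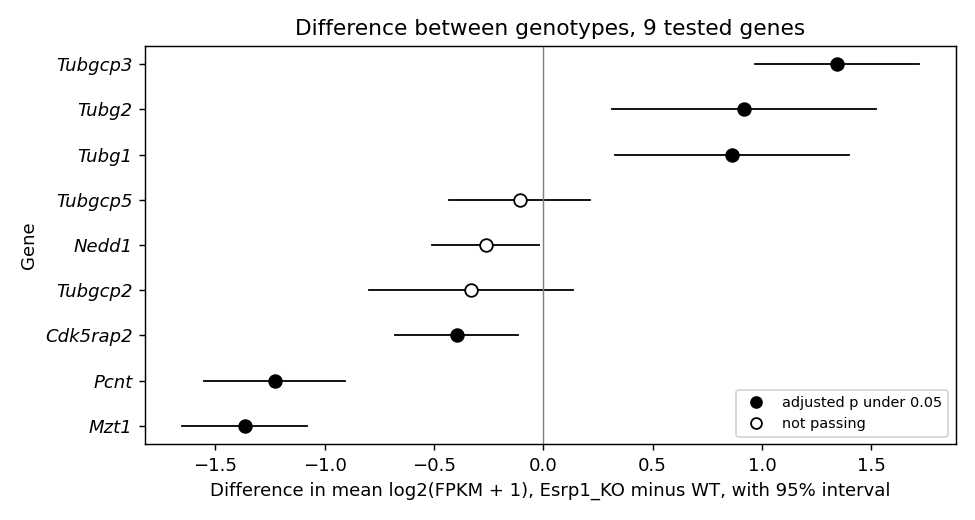
Difference in mean log2(FPKM + 1) between Esrp1_KO and WT (x axis) for the 9 tested genes, with the 95% interval from limma as a line. Filled points passed an adjusted p of 0.05, with Tubgcp3 at 1.34 the highest and Mzt1 at −1.37 the lowest.

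Tubg1 and Tubg2 code for the gamma-tubulins that form the ring. They are neighbours on chromosome 11 of GRCm38, both on the plus strand, at 101119938 to 101126419 (Tubg1) and 101155907 to 101161787 (Tubg2). Their coding regions, 1356 bases each, are 93.3% identical without a gap, and the longest identical run is 164 bases. In the GENCODE M21 transcripts 11.1% of the 50-base stretches of Tubg1 and 14.3% of those of Tubg2 occur in another gene, mainly in each other. The stretch printed here lies in exon 6 of both genes (chr11:101123913-101124032 and chr11:101159009-101159128, plus strand). It was picked because its identity is nearest that of the whole coding regions. How reads common to both genes were counted is not given in the sources used here. Capitals mark the 10 of 120 bases that differ.

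Tubg1: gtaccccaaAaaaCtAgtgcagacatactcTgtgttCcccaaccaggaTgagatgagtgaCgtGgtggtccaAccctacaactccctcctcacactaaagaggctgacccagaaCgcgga

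Tubg2: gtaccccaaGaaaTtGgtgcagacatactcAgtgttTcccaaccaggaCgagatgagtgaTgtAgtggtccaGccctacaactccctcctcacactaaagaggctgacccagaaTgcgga

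Tubg2 was the more abundant of the pair in all 8 libraries. It was at 89.3, 67.9, 53.2 and 56.3 FPKM in WT replicates 1 to 4 and at 188, 133, 129 and 73.6 in Esrp1_KO replicates 1 to 4. Esrp1_KO replicates 1 to 3 lay above all WT libraries, and replicate 4 fell inside the WT range. The mean went from 66.7 ± 16.3 to 131 ± 47 FPKM (SD, n = 4), a 1.97-fold rise, with a difference of 0.92 ± 0.27 (SE, adjusted p = 0.0241, limma). The call was lost without WT replicate 3 (adjusted p = 0.0674, limma), WT replicate 4 (0.0639), Esrp1_KO replicate 1 (0.0510), replicate 2 (0.0524) or replicate 3 (0.0547), with no filter (0.0810) and with replicates 1 and 4 alone (0.309).

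Tubg1 was at 16.3, 15.5, 12.6 and 17.3 FPKM in WT and at 41.4, 20.1, 21.3 and 37.9 in Esrp1_KO. All Esrp1_KO libraries lay above all WT libraries, and within Esrp1_KO replicates 1 and 4 lay well above replicates 2 and 3. The mean rose 1.96-fold, from 15.4 ± 2.0 to 30.2 ± 11.1 FPKM (SD, n = 4), with a difference of 0.86 ± 0.24 (SE, adjusted p = 0.0185, limma). The call was lost without WT replicate 3 (adjusted p = 0.0544, limma), without Esrp1_KO replicate 4 (0.0538), with no filter (0.0618) and with replicates 2 and 3 alone (0.0912). Within replicates 1 and 4 alone the difference was 1.19, and within replicates 2 and 3 alone it was 0.53. The split into these replicates was drawn from the profiles of the same libraries, so these differences are descriptions.

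The mix of the gamma-tubulins did not separate the groups. Tubg1 made up 15.4 to 23.5% of the summed FPKM of the pair in WT (19.2 ± 3.31%, SD, n = 4) and 13.1 to 34.0% in Esrp1_KO (19.8 ± 9.69%), with an exact two-sided permutation p of 0.971. Replicate 4 had the highest share in each group. The difference in means was 0.662 percentage points, and its sign turned without WT replicate 1 (−0.582) and without Esrp1_KO replicate 4 (−4.07). Summed over the pair, gamma-tubulin stood at 65.8 to 106 FPKM in WT and at 112 to 230 FPKM in Esrp1_KO.

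The GCPs are the other building blocks of the ring. GCP2 and GCP3 form the small gamma-tubulin complex, and GCP4 and GCP5 are found in the full ring. Their FPKM were all low beside those of gamma-tubulin, taken over 3980 to 8934 bases of exon against 1754 and 2266. The levels of Tubgcp2 to Tubgcp5 summed to 3.91 to 5.45 FPKM in WT and 5.94 to 8.19 in Esrp1_KO, so that gamma-tubulin stood at 13.5 to 19.4 times and 16.2 to 28.1 times the summed GCPs.

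Tubgcp3, on the minus strand of chromosome 8 (12614277 to 12672248), changed most by ratio among the 10 genes. It was at 0.858, 0.672, 0.357 and 0.867 FPKM in WT and at 4.20, 2.40, 3.14 and 3.45 in Esrp1_KO. The lowest Esrp1_KO library lay above the highest WT library. These levels rest on 86 to 215 reads per WT library and 513 to 1163 per Esrp1_KO library over 8568 bases of exon. The mean rose 4.79-fold, from 0.689 ± 0.24 to 3.30 ± 0.74 FPKM (SD, n = 4), with a difference of 1.34 ± 0.17 in mean log2(FPKM + 1) (SE, adjusted p = 0.000281, limma). That scale understates changes of low genes, and on reads recovered from the FPKM the log2 fold change was 2.32 (adjusted p = 0.000144, limma-voom). Tubgcp3 passed the filter through its Esrp1_KO level alone, and with no filter its adjusted p was 0.00185 (limma).

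Tubgcp2, on chromosome 7 (139995955 to 140036669, minus strand), did not pass. It was at 1.21, 2.04, 0.919 and 1.17 FPKM in WT and at 0.311, 1.12, 1.30 and 0.755 in Esrp1_KO, with overlapping groups. The difference was −0.33 with a 95% interval of −0.80 to 0.14 (adjusted p = 0.242, limma), resting on 40 to 203 reads per library. Tubgcp2 passed the filter through its WT level alone and was tested in 15 of the 18 alternatives. The level of Tubgcp3 was 0.330 to 0.740 times that of Tubgcp2 in WT and 2.15 to 13.5 times in Esrp1_KO. The order of these partners by FPKM therefore differed in every library between the groups.

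Tubgcp5 (chromosome 7, 55794154 to 55831677, plus strand) had 2.35 to 3.23 FPKM in WT and 2.19 to 3.30 in Esrp1_KO. The ranges overlapped nearly in full, with a difference of −0.11 and a 95% interval of −0.43 to 0.21 (adjusted p = 0.592, limma). Its sign turned with TMM scaling and quantile normalization.

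Tubgcp4 (chromosome 2, 121170654 to 121198770, plus strand) stayed under the filter and was not tested. It was at 0.244, 0.105, 0.114 and 0.173 FPKM in WT and at 0.383, 0.153, 0.224 and 0.291 in Esrp1_KO, from 22 to 104 reads per library. With no filter the difference was 0.12 (adjusted p = 0.364, limma). Exons of other genes cover 26.1% of its exon length, among them those of Trp53bp1 on the other strand, and 23.8% of its 50-base stretches occur in other genes. Trp53bp1, a DNA break repair gene, went from 14.1 ± 2.0 to 77.3 ± 30.3 FPKM (SD, n = 4), and Smart-seq2 does not mark strand. The part of Trp53bp1 reads in the value of Tubgcp4 was not tested.

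Mzt1 codes for a small protein that binds the GCPs and lies on the minus strand of chromosome 14 (99034544 to 99046134). It had the highest WT level of the 10 genes. It was at 134, 116, 121 and 137 FPKM in WT and at 44.4, 42.7, 52.3 and 56.2 in Esrp1_KO. The groups were far apart, and the lowest WT library was at over 2 times the level of the highest Esrp1_KO library. The mean fell from 127 ± 10 to 48.9 ± 6.42 FPKM (SD, n = 4), or 38.5% of WT, with a difference of −1.37 ± 0.13 (SE, adjusted p = 6.1e-05, limma). Same-numbered libraries differed by −1.57 to −1.19, lower in 4 of 4 pairs. The reads behind these values, 6573 to 8951 per WT library and 2400 to 3584 per Esrp1_KO library, were whole for a gene length of 2256 bases and not for the 2563 bases of exon in M21, so the gene model behind the deposited value was not that of M21.

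The start of Mzt1 lies 88 bases from that of Bora, which runs the other way on chromosome 14 (99046222 to 99074540) and codes for an activator of the mitotic kinases Aurora A and PLK1. Such neighbours are not particular to Mzt1. Tubg1 has Retreg3 at 45 bases, Tubgcp3 has 4931415C17Rik at 62, Tubgcp2 has Zfp511 at 278 and Tubgcp4 has Zscan29 at 471. Bora was chosen for description after its values were seen. It was at 54.9, 46.9, 50.01 and 60.7 FPKM in WT and at 68.9, 47.1, 55.2 and 58.1 in Esrp1_KO, with overlapping groups and a difference of 0.10 (95% interval −0.22 to 0.42, adjusted p = 0.621, limma). Mzt1 stood at 2.26 to 2.48 times Bora in WT and at 0.644 to 0.968 times in Esrp1_KO. The mean ratio was 2.40 ± 0.098 in WT and 0.867 ± 0.15 in Esrp1_KO (SD, n = 4), given as a description with no test because Bora was picked with these values in view.

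The 85 bases upstream of the RefSeq start of Mzt1 that lie in no M21 exon are printed because they lie between the starts of both genes (RefSeq, GRCm38.p6, chr14:99046137-99046221, minus strand, read towards Mzt1). Capitals mark GC boxes, searched as GGGCGG on both strands.

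Mzt1 upstream: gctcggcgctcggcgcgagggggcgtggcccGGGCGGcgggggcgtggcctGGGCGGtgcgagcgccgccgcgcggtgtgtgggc

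The window held 2 GC boxes that do not overlap, and 22.8% of the 32851 RefSeq windows of this length held at least 1. It held none of the other motifs searched on both strands, namely CCAAT (in 16.4% of windows), TATAAA (4.96%), CACGTG (2.81%) and the NRF1 motif (0.48%). Farther from the start of Mzt1, outside the printed bases, lie 2 CCAAT boxes (from −224 and from −192) and another GC box (from −244). These 3 matches lie inside the Bora gene, which starts where the printed bases end. Of RefSeq windows of 250 bases, 33.85% held a CCAAT box and 32.74% a GC box. A match in letters is a description and not a site.

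**Figure D3:**
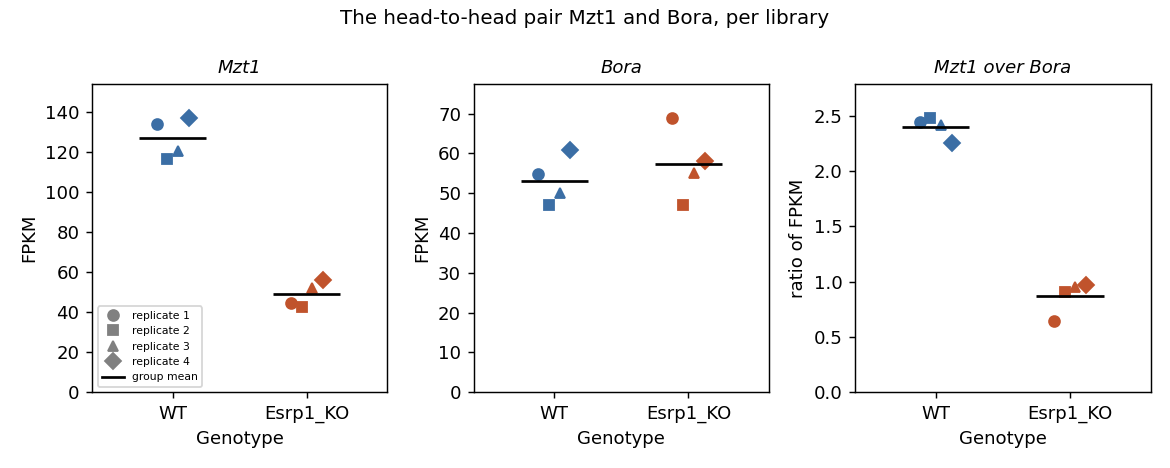
FPKM of Mzt1 and Bora and their ratio (y axes from 0) by genotype (x axis), with 1 point per library and a bar at each group mean. Mzt1 falls from 127 to 48.9 FPKM on average while the Bora libraries overlap, and the mean ratio is 2.40 in WT and 0.867 in Esrp1_KO.

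Nedd1 brings the gamma-tubulin ring to centrosomes and spindle microtubules. The gene (chromosome 10, 92684746 to 92722420, minus strand) was at 70.4, 71.3, 64.1 and 68.8 FPKM in WT and at 60.002, 52.7, 53.5 and 62.4 in Esrp1_KO. All Esrp1_KO libraries lay under all WT libraries, by a small margin. The mean was 68.7 ± 3.19 and 57.2 ± 4.81 FPKM (SD, n = 4), with a difference of −0.26 ± 0.11 (SE) that did not pass (adjusted p = 0.0873, limma; 0.0760 to 0.456 over 18 alternatives).

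Pcnt codes for pericentrin, the large scaffold that anchors gamma-tubulin rings at organizing centers, and lies on the minus strand of chromosome 10 (76351263 to 76442786). It was at 23.9, 23.6, 34.0 and 29.7 FPKM in WT and at 11.7, 11.9, 11.2 and 9.89 in Esrp1_KO. The Esrp1_KO libraries were close to each other and all far under the WT range. The mean fell from 27.8 ± 4.97 to 11.2 ± 0.90 FPKM (SD, n = 4), or 40.2% of WT, with a difference of −1.23 ± 0.14 (SE, adjusted p = 0.000197, limma). These values rest on 7191 to 11619 reads per WT library and 3399 to 4612 per Esrp1_KO library over 12154 bases of exon. As reads are not independent molecules, they do not give the counting error.

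Cdk5rap2 codes for a pericentriolar protein that binds pericentrin and activates the gamma-tubulin ring (chromosome 4, 70216856 to 70410443, minus strand). It was at 4.65, 3.86, 5.04 and 4.32 FPKM in WT and at 2.92, 3.76, 3.01 and 2.93 in Esrp1_KO. The groups did not overlap, but the replicates numbered 2 lay close to each other. The mean fell from 4.47 ± 0.50 to 3.16 ± 0.41 FPKM (SD, n = 4), with a difference of −0.40 ± 0.13 (SE, adjusted p = 0.0325, limma). The call was lost in 13 of 17 alternatives, with the replicate number as a block (adjusted p = 0.0523, limma), TMM scaling (0.0960), median-ratio scaling (0.0843), quantile normalization (0.0730) and no filter (0.0539) among them. It was also lost without WT replicate 1 (0.0827), 3 (0.0870) or 4 (0.0660) and without Esrp1_KO replicate 1 (0.0594), 3 (0.0734) or 4 (0.0809).

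The scaffolds differed in how far they moved. Pcnt stood at 5.14 to 6.87 times the level of Cdk5rap2 in WT and at 3.16 to 4.02 times in Esrp1_KO. Set against gamma-tubulin, the summed FPKM of Tubg1 and Tubg2 was 1.94 to 4.42 times that of Pcnt in WT and 11.3 to 19.6 times in Esrp1_KO, and 0.537 to 0.787 times and 1.99 to 5.18 times that of Mzt1. The ranges of the groups were apart in each of these ratios, which are built from the values given above and were not tested again.

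By mean FPKM the order in WT was Mzt1, Nedd1, Tubg2, Pcnt, Tubg1, Cdk5rap2, Tubgcp5, Tubgcp2, Tubgcp3 and Tubgcp4. In Esrp1_KO it was Tubg2, Nedd1, Mzt1, Tubg1, Pcnt, Tubgcp3, Cdk5rap2, Tubgcp5, Tubgcp2 and Tubgcp4. The libraries of Nedd1 and Tubg2 overlapped in WT, as did those of Nedd1 and Mzt1 in Esrp1_KO, so these neighbours were not in a firm order. In Esrp1_KO the same held for Tubgcp3 and Cdk5rap2, for Cdk5rap2 and Tubgcp5, and for Tubgcp2 and Tubgcp4. The libraries of the other neighbours in both orders did not overlap.

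The calls of Mzt1, Pcnt and Tubgcp3 held in every alternative in which the gene was tested (18, 18 and 17). Their largest adjusted p values there were 0.0085, 0.0173 and 0.0153 (limma), each from a fit on 2 replicates per group. Wherever a filter was set, Tubgcp3 entered the fit through its Esrp1_KO level alone, and at 5 FPKM it was not tested.

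**Figure D4:**
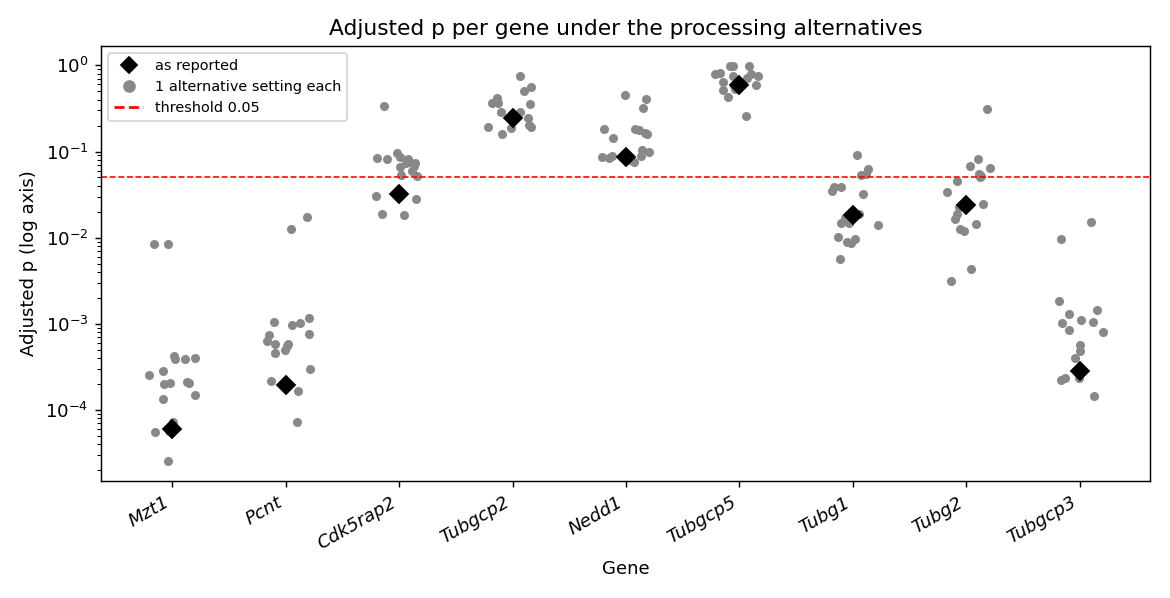
Adjusted p (y axis, log) of the 9 tested genes (x axis), with a diamond for the reported value, a grey point for each alternative setting and a dashed line at 0.05. All points of Mzt1, Pcnt and Tubgcp3 lie under the line, those of Tubgcp2, Nedd1 and Tubgcp5 all lie above it, and those of Cdk5rap2, Tubg1 and Tubg2 fall on both sides.

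Other genes whose libraries ran most like each called gene were looked up among 6924 protein-coding genes, by Pearson r of log2(FPKM + 1) over the 8 libraries, which share the split by genotype. Tubg2 ran most like Aurka (r = 0.966), the kinase of organizing center maturation, which is described below. Mzt1 ran most like Slc39a10 (r = 0.997), a zinc importer that went from 141 ± 3.44 to 83.7 ± 5.77 FPKM, and Anln (r = 0.997), an actin-binding protein of the cleavage furrow that went from 41.1 ± 2.37 to 24.2 ± 1.73 FPKM (SD, n = 4). Tubgcp3 ran most like the repair enzyme gene Tdp2 (r = 0.993), Pcnt like Cemip2 (r = 0.992), Tubg1 like Wdr19 (r = 0.984) and Cdk5rap2 like the exonuclease gene Xrn2 (r = 0.987).

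Other genes of microtubule nucleation were read from 5 lists of 55 genes in all, of which 43 were tested. Of these 6 rose and 8 fell, 32.6% in all against 36.9% of all genes tested, with a median difference of 0.07 against −0.06. The counts moved with the settings, to 10 higher with TMM or median-ratio scaling, and to 5 lower without WT replicate 1 or without Esrp1_KO replicate 4. Leaving out 1 library at a time gave 4 to 8 higher.

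Of 5 genes listed with gamma-tubulin and its complex, the 3 tested all fell, where 23.1% of all genes tested did. Nme7, a kinase family protein found in the ring, went from 6.88 ± 0.84 to 3.49 ± 0.46 FPKM (SD, n = 4), Tube1 (epsilon-tubulin) from 3.23 ± 0.50 to 1.59 ± 0.22 and Tubd1 (delta-tubulin) from 3.58 ± 0.91 to 1.81 ± 0.62 (adjusted p = 0.00104, 0.0029 and 0.0227, limma). Epsilon- and delta-tubulin belong to centrioles rather than to the ring. The call of Tubd1 was lost without WT replicate 1 (0.0618), WT replicate 2 (0.0567) or Esrp1_KO replicate 4 (0.0537), with no filter (0.0693), with only replicates 1 and 4 (0.0899) or only replicates 2 and 3 (0.114). With replicates 2 and 3 alone the call of Tube1 was also lost (0.107). The remaining ring genes, Tubgcp6 and Mzt2, were at 0 to 0.486 FPKM and were not tested.

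Of 22 other pericentriolar and organizing center genes 16 were tested, and 4 fell, 1 rose and 11 did not pass. The 5 called are 31.25% of those tested, against 36.9% of all genes. The microtubule anchor Nin (ninein) fell from 24.0 ± 2.11 to 12.8 ± 0.78 FPKM (SD, n = 4), and the scaffold Akap9 from 7.33 ± 0.094 to 4.48 ± 0.69 (adjusted p = 0.000416 and 0.0039, limma). With replicates 2 and 3 alone the call of Akap9 was lost (0.113). Pde4dip (myomegalin), a relative of Cdk5rap2, fell from 3.73 ± 0.79 to 2.43 ± 0.17, and Nde1, a dynein regulator named after its values were seen, from 8.71 ± 0.36 to 6.21 ± 1.43 (adjusted p = 0.0366 and 0.0399, limma). Each of these last calls was lost in 13 alternatives and without any 1 of 7 of the 8 libraries, with adjusted p up to 0.102 and 0.106 when a library was left out. The exceptions were WT replicate 2 for Pde4dip and Esrp1_KO replicate 1 for Nde1. The spindle pole protein gene Aspm rose 2.88-fold, from 20.4 ± 1.64 to 58.6 ± 17.6 FPKM (adjusted p = 0.000483, limma).

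Of the 8 augmin genes, whose complex recruits gamma-tubulin rings to the sides of existing microtubules, 6 were tested and only Haus1 passed. That is 16.7% of those tested, against 36.9% of all genes tested. Haus1 went from 2.32 ± 1.01 to 5.14 ± 1.93 FPKM (SD, n = 4; adjusted p = 0.0303, limma), with overlapping groups. Its call was lost without WT replicate 2 (0.0700), WT replicate 3 (0.0676), Esrp1_KO replicate 2 (0.0707) or Esrp1_KO replicate 4 (0.0817), with no filter (0.0955) and with replicates 1 and 4 alone (0.298). Haus4, Haus7 and Haus8 did not pass (adjusted p = 0.116, 0.156 and 0.339, limma), but Haus4, at 91.5 ± 13.5 and 139 ± 52 FPKM, passed with TMM scaling (0.0471), with median-ratio scaling (0.0497) and without Esrp1_KO replicate 3 (0.0171).

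Of 8 kinases of organizing center assembly 6 were tested and only Nek7 was called, or 16.7% against 36.9% of all genes tested. Nek7 fell from 3.54 ± 0.23 to 2.17 ± 0.23 FPKM (SD, n = 4; adjusted p = 0.0059, limma). Its call was lost with only replicates 1 and 4 (0.0671) or only replicates 2 and 3 (0.105). Aurka, which codes for Aurora A, stood at 105 ± 20 FPKM and 156 ± 48 FPKM in WT and Esrp1_KO (adjusted p = 0.0915, limma). That gene passed with the replicate number as a block (0.0255), with TMM scaling (0.0399), with median-ratio scaling (0.0433) and without Esrp1_KO replicate 4 (0.0263). Plk4 (adjusted p = 0.232, limma) passed with TMM scaling (0.0401) and median-ratio scaling (0.0435), and Cdk1 did not pass (0.406).

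In the list of chromatin-driven spindle assembly, in which the GTPase Ran frees spindle factors from importins near chromosomes, 4 of 12 genes rose and none fell, so 33.3% were called against 36.9% of all genes tested. Kpna2, an importin alpha, went from 146 ± 20 to 275 ± 55 FPKM (SD, n = 4), Ran from 3.95 ± 1.08 to 7.56 ± 2.44 and the nuclear RNA-binding protein gene Hnrnpu from 24.8 ± 3.80 to 35.2 ± 3.66 (adjusted p = 0.0025, 0.0218 and 0.0202, limma). Tpx2, a spindle factor released by Ran, also rose (adjusted p = 0.0049, limma). The call of Ran was lost without WT replicate 1 (0.0521), WT replicate 4 (0.0622) or Esrp1_KO replicate 4 (0.0563), with no filter (0.0683) and with replicates 2 and 3 alone (0.145). That of Hnrnpu was lost without WT replicate 1 (0.0538) or 2 (0.0516), with only replicates 1 and 4 (0.0945) or only replicates 2 and 3 (0.112). That of Tpx2 was lost with replicates 2 and 3 alone (0.113). The median difference of this list was 0.21 and that of the pericentriolar list −0.13, against −0.06 over all genes tested.

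**Figure D5:**
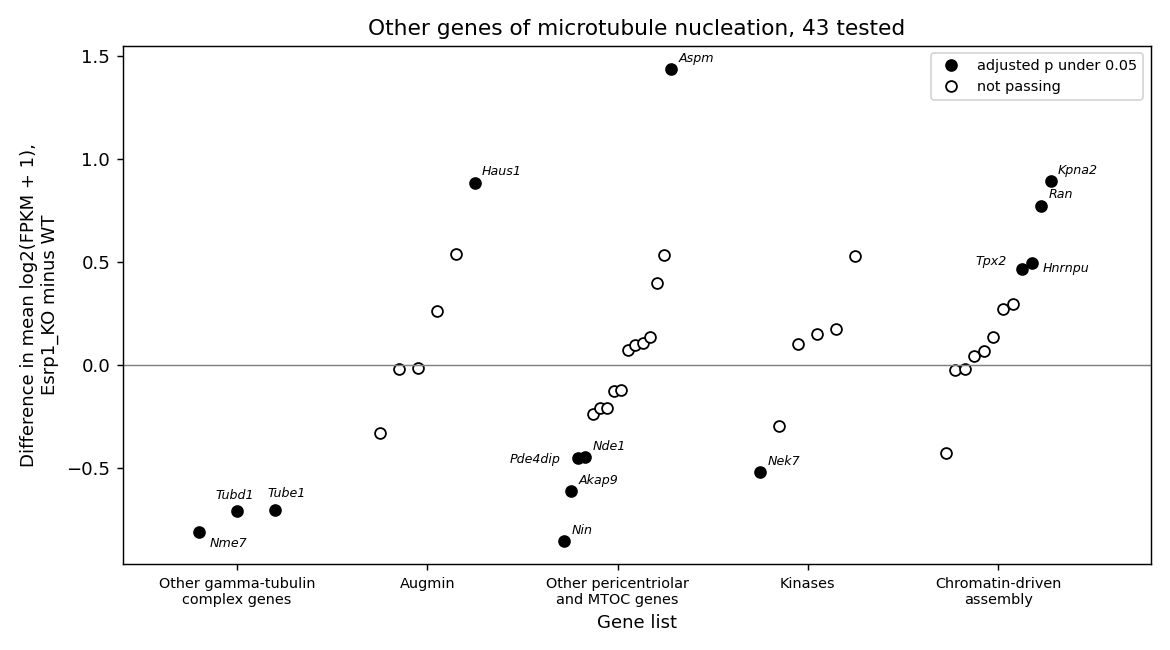
Difference in mean log2(FPKM + 1) between Esrp1_KO and WT (y axis) of the 43 tested genes in 5 lists (x axis), ordered by value within a list, with called genes filled and named. The 3 genes tested of the first list, Nme7, Tube1 and Tubd1, lie under 0, between −0.81 and −0.70. Of these Tube1 and Tubd1 belong to centrioles rather than to the ring. Aspm at 1.44 lies highest.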

How the data were processed

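FPKM per Ensembl gene were computed by the authors from Smart-seq2 libraries and deposited as 1 file per library, per the file headers, with GRCm38 as the build per the submitters' processing notes. The aligner, counter and annotation release were not given in the sources used here. Symbols came from GENCODE M21 (24812 of 24860 genes matched). FPKM steps gave whole reads, within 0.02 read, for 89.9 to 90.6% of values above 0, and reads were recovered for 24417 genes.

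Genes averaging at least 1 FPKM (8021) were fitted as log2(FPKM + 1) with limma 3.58.1 (trended variance, R 4.3.3), genotype as the only term. Adjusted p-values are Benjamini-Hochberg values across these 8021 genes. The test was tried on simulated data for this comparison (8021 genes), where it found 40.3% of the 67 genes given a 1.5-fold change. At a 2-fold change it found 97% of 67, at a 4-fold change 100% of 66, and 7 of its 165 calls were false. The simulated noise was normal, with the spread typical of each level. The changed genes left out the lowest and were far fewer than the 36.9% called in the data. Genes with a wider spread or nearer the filter are not covered by these shares. The Tubg1 share of the gamma-tubulin pair was tested by exact two-sided permutation, and other ratios are descriptions. Sequences were read with Python 3.11.15 and Biopython 1.88.

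Alternatives were another pseudocount (0.1), no filter, a filter of 5 FPKM, TMM scaling, median-ratio scaling, quantile normalization, limma-voom on recovered reads, the replicate number as a block, each library left out, and replicates 1 and 4 or 2 and 3 alone. The last splits follow the libraries' profiles. Same-numbered WT and Esrp1_KO libraries deviated together (r = 0.262, 0.317, 0.226 and 0.261 over genes for numbers 1 to 4), so the numbers may pair the libraries and the block was run as an alternative. The reported values are unpaired. WT replicate 4 correlated more with Esrp1_KO replicate 1 (0.402) than with its own number, and WT replicate 3 more with Esrp1_KO replicate 2 (0.252). No libraries were identical.

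The 10 genes and the lists were chosen with earlier results of these data known. Genes named besides them were Esrp1, up to 4 tested genes per list with the smallest p, the 3 most abundant markers per list of other cells, and the genes most like each called gene. Fshr, Ptx3, Gdf9, Zp3, Tubgcp6 and Mzt2 were named from the lists outside these rules, and neighbours of the 10 genes by position. Bora, Nde1 and Trp53bp1 were chosen after their values were seen.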

Additional observations from a re-analysis of the deposited data

Results flagged for a closer look

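Among 78 groups of 4 libraries, 6 held 1 library far from the other 3, where chance alone gives about 1 in 20. Among the 10 genes this was Cdk5rap2, at 3.76 FPKM in Esrp1_KO replicate 2 against 2.92 to 3.01 in the other Esrp1_KO libraries. Nme7 was at 8.12 FPKM in WT replicate 3 against 6.30 to 6.60 in the other WT libraries. WT replicate 2 stood apart for Haus8 (6.60 FPKM against 4.09 to 4.50) and for Cdk1 (4.05 against 4.66 to 4.67). The immune markers Cd68 (3.50 FPKM against 0.541 to 0.639) and Lyz2 (5.44 against 0 to 0.728) stood apart in Esrp1_KO replicate 3.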

How the results depend on the processing

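Over 18 alternatives the 9 tested genes gave 156 values, of which 130 kept their direction and their side of the threshold, 24 lost their call and 2 changed sign. The calls of Mzt1, Pcnt and Tubgcp3 held wherever they were tested, and Tubgcp2 and Nedd1 never passed. Wherever a filter was set, Tubgcp3 was tested through its Esrp1_KO level alone. With no filter 3 of the 10 genes were called, 1 of them higher. Leaving out 1 library gave 3 to 6 called and 1 to 3 higher, the fewest without WT replicate 3. The difference of Tubgcp5 turned to 0.0025 with TMM scaling and 0.0030 with quantile normalization, and that of Cdk1 to 0.18 with replicates 2 and 3 alone. The Tubg1 share difference ranged from −4.07 to 2.89 percentage points when 1 library was left out, with −0.582 without WT replicate 1.

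Over all genes, 668 were higher and 996 lower at 5 FPKM or more, 675 higher with replicates 1 and 4 alone, and 569 higher and 879 lower with replicates 2 and 3 alone. Of the other nucleation genes, 10 were higher with TMM scaling and 10 with median-ratio scaling, 3 with replicates 2 and 3 alone, and 4 to 8 with 1 library left out. Lower were 4 at 5 FPKM or more, 4 with replicates 1 and 4 alone, 2 with replicates 2 and 3 alone, and 5 to 8 with 1 library left out. With the replicate number as a block, 1376 genes were higher and 2030 lower. Among the named genes with a test the block ended the call of Cdk5rap2 (adjusted p = 0.0523, limma) and made that of Aurka (0.0255). Fewer genes or libraries enter some of these fits, and otherwise the cause was not tested. Among the 10 genes the fewest reads per library stood behind Tubgcp4 (22 to 104) and Tubgcp2 (40 to 203).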
